A study of Homo sapiens with 5 samples.

Results

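The chromatin of 4 BCL2 family genes, BCL2, MCL1, BCL2L1 and BCL2L11, was examined in MOLT-4, a long-established human cell line of T cell acute lymphoblastic leukaemia. Their members were all deposited peaks that overlapped fixed hg19 windows on chromosome 18 from 60.76 to 61.02 Mb for BCL2, chromosome 1 from 150.53 to 150.57 Mb for MCL1, chromosome 20 from 30.24 to 30.33 Mb for BCL2L1 and chromosome 2 from 111.85 to 111.95 Mb for BCL2L11. The windows held 34 of the 51455 peaks in the series, namely 9 H3K4me3 peaks, 24 RUNX1 peaks and 1 SMA4 peak. The assay was CUT&RUN, in which an antibody brings a micrococcal nuclease, fused to protein A/G, to its target, and the fragments cut free are sequenced. All libraries came from MOLT-4 cells grown in serum-supplemented medium, and the labels name no treatment, genotype or other line, so the groups differ by antibody: H3K4me3, RUNX1, a target labelled SMA4 that the labels do not spell out, and IgG in the 2 control samples, whose peaks were not analysed here. Each target antibody had 1 library, so no value has a replicate check, no p-value is given, and the lists hold neither scores nor read depth. Per the file headers, the SMA4 list also came from another batch and peak-calling pipeline than the other lists, so antibody, batch and pipeline cannot be told apart in it.

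BCL2 family proteins set the threshold for mitochondrial apoptosis. BCL2, MCL1 and BCL-XL, the long product of BCL2L1, hold the pore-forming members in check, whereas BIM, the product of BCL2L11, is a BH3-only protein that binds the survival proteins and promotes cell death. In developing T cells BIM takes part in the removal of self-reactive thymocytes, BCL-XL supports the survival of cells that carry both CD4 and CD8, and T cell leukaemias differ in whether they lean on BCL2 or on BCL-XL. H3K4me3, trimethylation of a lysine of histone H3, marks promoters that are active or poised. RUNX1 is a haematopoietic transcription factor that binds DNA through its runt domain together with CBFB. Peaks record where chromatin was recovered, and no expression was measured.

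All 4 windows held both H3K4me3 and RUNX1 peaks, and SMA4 was found in the BCL2 window alone. The numbers of H3K4me3, RUNX1 and SMA4 peaks were 4, 6 and 1 in the BCL2 window, 1, 3 and 0 in the MCL1 window, 3, 6 and 0 in the BCL2L1 window, and 1, 9 and 0 in the BCL2L11 window. The windows span 260, 40, 90 and 100 kb in the same order. The window of the pro-apoptotic gene BCL2L11 thus held the most RUNX1 peaks of the 4 beside a single H3K4me3 peak. The BCL2 window, the longest, held the most H3K4me3 peaks. These are counts of windows, and without an hg19 annotation the peaks cannot be assigned to the genes. Every H3K4me3 peak overlapped RUNX1 (9 of 9, 100%, 95% Wilson interval 70.1 to 100%), against 88.1% of the whole H3K4me3 list. Of the RUNX1 peaks, 9 of 24 overlapped H3K4me3 (37.5%, 95% interval 21.2 to 57.3%), against 32.2% of the whole RUNX1 list. Both intervals treat peaks as independent, which neighbouring peaks are not: 1 RUNX1 peak overlapped 3 of the 9 H3K4me3 peaks. They cover counting error only and do not test the windows against the lists.

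**Figure D1:**
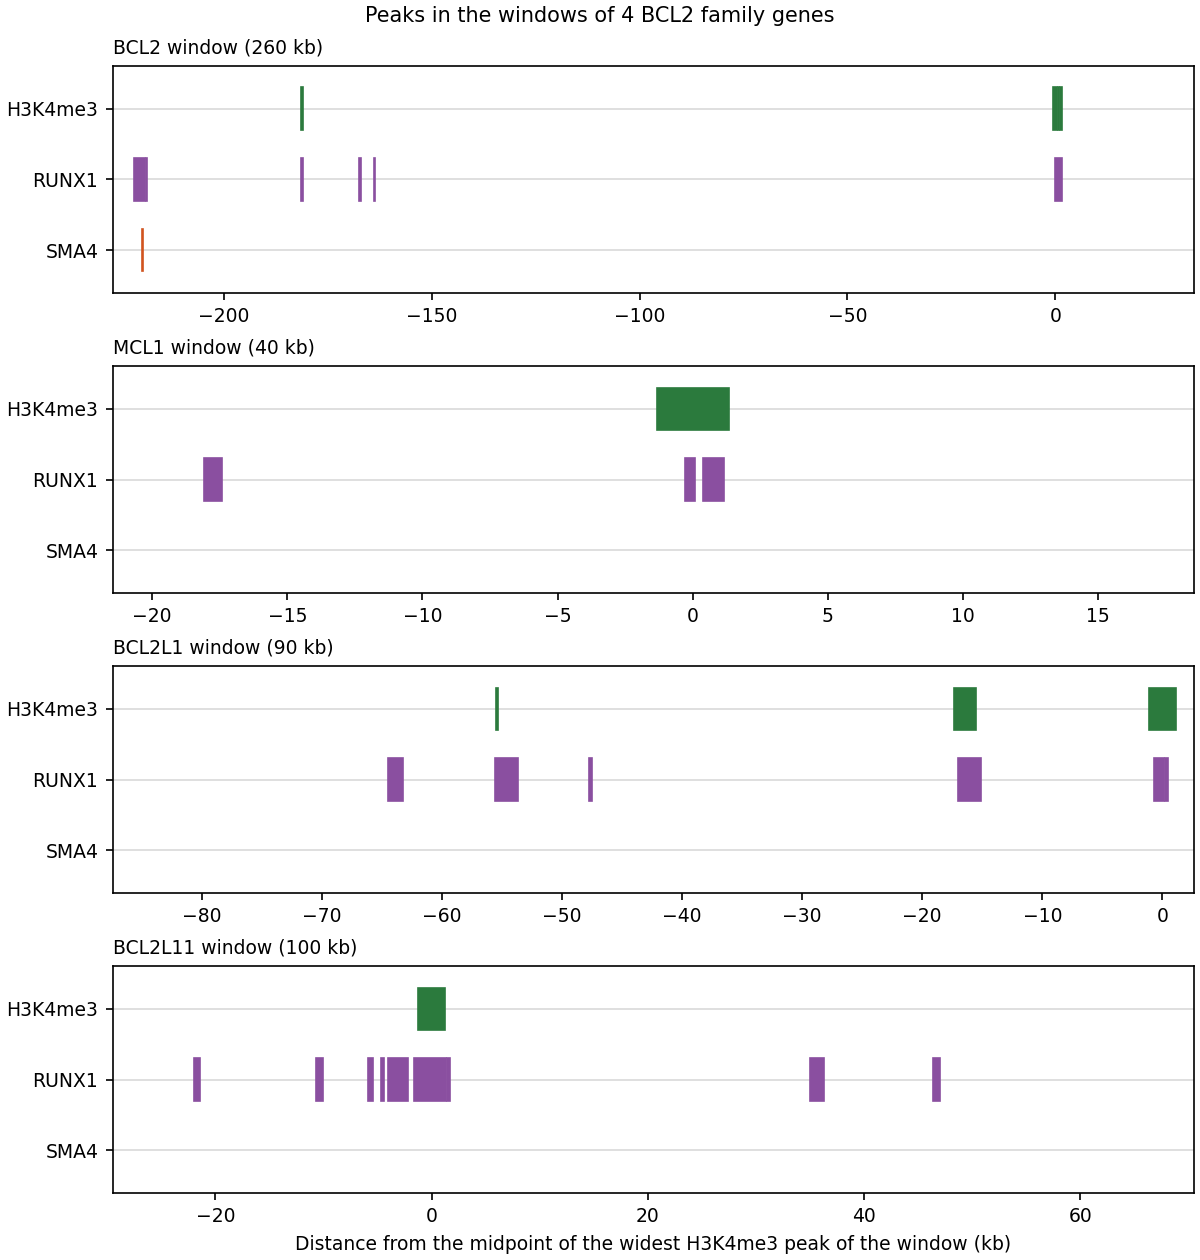
Peaks of the 3 lists in each window, with distance in kb from the midpoint of the window's widest H3K4me3 peak on the x axis and 1 row per list. Boxes span the peaks with a thin outline that slightly enlarges the narrow ones. The 4 windows hold 9 H3K4me3, 24 RUNX1 and 1 SMA4 peak, the last at the far left of the BCL2 window.

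Sequences before the annotated starts are shown to set the runt-domain core motif beside the RUNX1 peaks. RefSeq's table for GRCh38.p14 held entries of 300 bases (250 before and 50 after a start) for 3 of the 4 genes: 1 for BCL2, 2 for BCL2L1 and 1 for BCL2L11. MCL1 had no entry. The search used TGTGGT, the RUNX core, and TGNGGT, a wider form that includes it, on both strands. These entries carry GRCh38 positions and the peaks hg19 positions, so whether a printed base lies inside a peak was not read. The 250 bases before the first BCL2L1 start (chr20:31723964-31724213, minus strand) and before the BCL2L11 start (chr2:111120664-111120913, plus strand) are printed with matches to TGNGGT or its reverse complement in capitals. BCL2 is represented by the 30 bases around each of its matches, at chr18:63319859-63319888 and chr18:63319740-63319769 on the minus strand.
BCL2L1: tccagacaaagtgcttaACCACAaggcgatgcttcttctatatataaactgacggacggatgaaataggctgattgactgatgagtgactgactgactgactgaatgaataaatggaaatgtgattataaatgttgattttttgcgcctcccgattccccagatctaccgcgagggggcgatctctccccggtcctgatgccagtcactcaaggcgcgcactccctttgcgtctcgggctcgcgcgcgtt
BCL2L11: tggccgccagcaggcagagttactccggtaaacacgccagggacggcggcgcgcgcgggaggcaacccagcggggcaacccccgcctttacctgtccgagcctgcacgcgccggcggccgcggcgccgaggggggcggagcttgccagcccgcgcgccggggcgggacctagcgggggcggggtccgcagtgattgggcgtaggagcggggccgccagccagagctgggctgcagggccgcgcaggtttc
BCL2, first match: ggggtgcgccggTGGGGTgcagcggaagag
BCL2, second match: acccctcgccgcACCACAcacagcgcgggc

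The core TGTGGT occurred in 1 BCL2 entry and in the first of the 2 BCL2L1 entries. In BCL2L1 it lay on the opposite strand, between 233 and 228 bases before the start. In BCL2 it also lay on the opposite strand, between bases 13 and 18 after the start, and the wider form occurred on the gene's strand between 107 and 102 bases before it. The second BCL2L1 entry, which is not printed, held 2 matches to the wider form and 0 to the core. Which of the 2 BCL2L1 starts lies at an H3K4me3 peak was not read. BCL2L11 held 0 matches to either, which says only that these letters are not in its 300 bases. Over all 35116 RefSeq entries, 13.1% held the core and 43.2% the wider form, so a match is frequent and is a description, not a site. SMAD motifs were also searched. The labels do not identify SMA4 as a SMAD protein, so matches or their lack say nothing about the SMA4 peaks. The SMAD box GTCTAGAC, in 0.202% of all entries, matched in none of the entries of these genes. The shorter SMAD motif CAGAC, in 45.3% of all entries, matched once in the first BCL2L1 entry and once in the BCL2L11 entry.

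BCL2, the founding survival gene of the family, had its H3K4me3 in 2 places 180.6 kb apart. BCL2 lies on the minus strand, and KDSR is the next protein-coding gene on the side its start faces, by the order of the RefSeq table. On that side of the window stood 3 H3K4me3 peaks close together, from 60986232 to 60987177 (946 bp), from 60987309 to 60987582 (274 bp) and from 60987908 to 60988304 (397 bp), with gaps of 131 and 325 bp. None of the 3 reached the upper quartile of the list (1524 bp), and the list median was 938 bp. Joined across gaps under 500 bp they span 2073 bp, and 15.1% of the 11277 joined H3K4me3 regions of the genome were at least as wide. The mark on the KDSR side of BCL2 was thus called in 3 pieces.

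A single RUNX1 peak of 1659 bp, from 60986714 to 60988372, overlapped all 3 of those H3K4me3 peaks and bridged both gaps. In the whole list, 0.24% of RUNX1 peaks overlapped 3 or more H3K4me3 peaks. That share is over peaks of all widths, and only 7.42% of the list was at least as wide as this peak. This RUNX1 peak covered 49.0% of the 946 bp peak and 100% of the other two. The fourth H3K4me3 peak, from 60805348 to 60805672 (325 bp), lay inside a RUNX1 peak of 494 bp from 60805319 to 60805812. Of the H3K4me3 list, 77.1% was at least as wide as that small peak.

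The other RUNX1 peaks of the BCL2 window lay outside the mark, on the side away from KDSR. The widest, from 60765036 to 60767802 (2767 bp), was among the widest 1.09% of the RUNX1 list. A peak of 295 bp followed it after 137 bp, from 60767940 to 60768234. Peaks of 440 bp, from 60819270 to 60819709, and 247 bp, from 60822855 to 60823101, stood 13.6 and 17.2 kb from the nearest H3K4me3 peak. Between the last of these and the RUNX1 peak at the H3K4me3 group lay 163.6 kb without a RUNX1 peak. RUNX1 in this window thus fell into separate places, with 1 peak at the H3K4me3 group and 5 at least 163.6 kb away from that RUNX1 peak.

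The single SMA4 peak of the 4 windows lay within the 2767 bp RUNX1 peak, from 60767103 to 60767324. It was 222 bp wide, against a median of 219 bp in the SMA4 list. It overlapped RUNX1, as did 65.9% of the SMA4 list, and not H3K4me3, which 21.8% of the SMA4 list overlapped. The nearest H3K4me3 peak was 38.0 kb away, and the H3K4me3 group on the KDSR side was 218.9 kb away. The next SMA4 peak on the chromosome was 892.8 kb away. With 1 peak these shares carry almost no precision (95% Wilson intervals 20.7 to 100% and 0 to 79.3%). From the H3K4me3 peaks of the other windows to the nearest SMA4 peak the distance was at least 3536.8 kb for MCL1, 688.8 kb for BCL2L1 and 371.5 kb for BCL2L11. A list of 1475 SMA4 peaks leaves most genes without one, so this does not show that the target was absent there.

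MCL1, a survival protein that turns over quickly and on which developing lymphocytes depend, had the widest H3K4me3 peak of the 4 windows. It ran from 150550125 to 150552800 (2676 bp), and 3.70% of the H3K4me3 list was at least as wide. RUNX1 was called as 2 peaks wholly inside it, of 366 bp from 150551172 to 150551537 and of 773 bp from 150551839 to 150552611, with 301 bp between them. Of the whole H3K4me3 list, 8.06% of the peaks overlapped 2 or more RUNX1 peaks. That share is over peaks of all widths, and a mark this wide has more room for 2. RUNX1 covered 42.6% of the mark here, the lowest share among the 9 H3K4me3 peaks. The 366 bp peak lay near the centre of the mark, its midpoint 0.108 kb below that of the mark, and the 773 bp peak lay towards the high-coordinate end, its midpoint 0.762 kb above. MCL1 lies between ADAMTSL4 and ENSA in the order of protein-coding genes, and the third RUNX1 peak, from 150533384 to 150534058 (675 bp), stood on the ADAMTSL4 side, 16.1 kb from the mark and 3383 bp from the window's edge.

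BCL2L1, which encodes BCL-XL, had 2 wide H3K4me3 peaks and 1 narrow one. BCL2L1 is a minus-strand gene, and TPX2, which encodes a spindle assembly factor, is the next protein-coding gene on the side its start faces. The peak from 30310051 to 30311875 (1825 bp) and the peak from 30326305 to 30328484 (2180 bp), 14.4 kb nearer to TPX2, were both wider than the upper quartile of the list. The second lay 1516 bp from the edge of the window, and without an hg19 annotation it cannot be assigned to BCL2L1 or to TPX2. RUNX1 was placed differently at the 2 marks. At the first, a RUNX1 peak of 1948 bp from 30310334 to 30312281 covered 84.5% of the mark and ran beyond it on the TPX2 side. At the second, peaks of 837 bp from 30326686 to 30327522 and 253 bp from 30327641 to 30327893 lay inside the mark and covered 50% of it.

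The third H3K4me3 peak of the BCL2L1 window was 238 bp wide, from 30271871 to 30272108, and 84.8% of the list was at least as wide. It sat inside a RUNX1 peak of 1943 bp, from 30271807 to 30273749, of which it took up 12.2%. This RUNX1 peak was nearly as wide as the one at the 1825 bp mark, and 4.36% of the RUNX1 list was at least as wide. A RUNX1 peak of 1221 bp from 30262913 to 30264133 and a peak of 227 bp from 30279654 to 30279880 flanked it at 7.67 and 5.90 kb, both without H3K4me3. These 3 RUNX1 peaks form a region of 17.0 kb when peaks under 10 kb apart are joined, and stay separate when only peaks under 5 kb apart are joined. The narrow mark inside this region lay 37.9 kb from the 1825 bp mark.

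BCL2L11, the gene of the death-promoting BIM, had 1 H3K4me3 peak, from 111878256 to 111880747 (2492 bp), and 5.06% of the list was at least as wide. The next H3K4me3 peak on the chromosome was 371.9 kb away. The widest RUNX1 peak of the 4 windows, from 111877831 to 111880797 (2967 bp), contained this mark entirely and exceeded it on both sides. Only 0.808% of the RUNX1 list was at least as wide. Complete cover by RUNX1 was found for 5 of the 9 H3K4me3 peaks, against 27.7% of the whole list. The other 4 fully covered peaks were 238 to 397 bp wide, and those of 274 and 397 bp lay in the same RUNX1 peak at BCL2. No share was computed for list peaks of such narrow widths, so the 5 of 9 is not matched for width. Among H3K4me3 peaks of the list at or above the upper quartile of width, complete cover was found for 6.64%. The BCL2L11 peak is wider than that quartile, and so were the peaks of MCL1 and of BCL2L1 that were covered to 42.6, 84.5 and 50%.

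**Figure D2:**
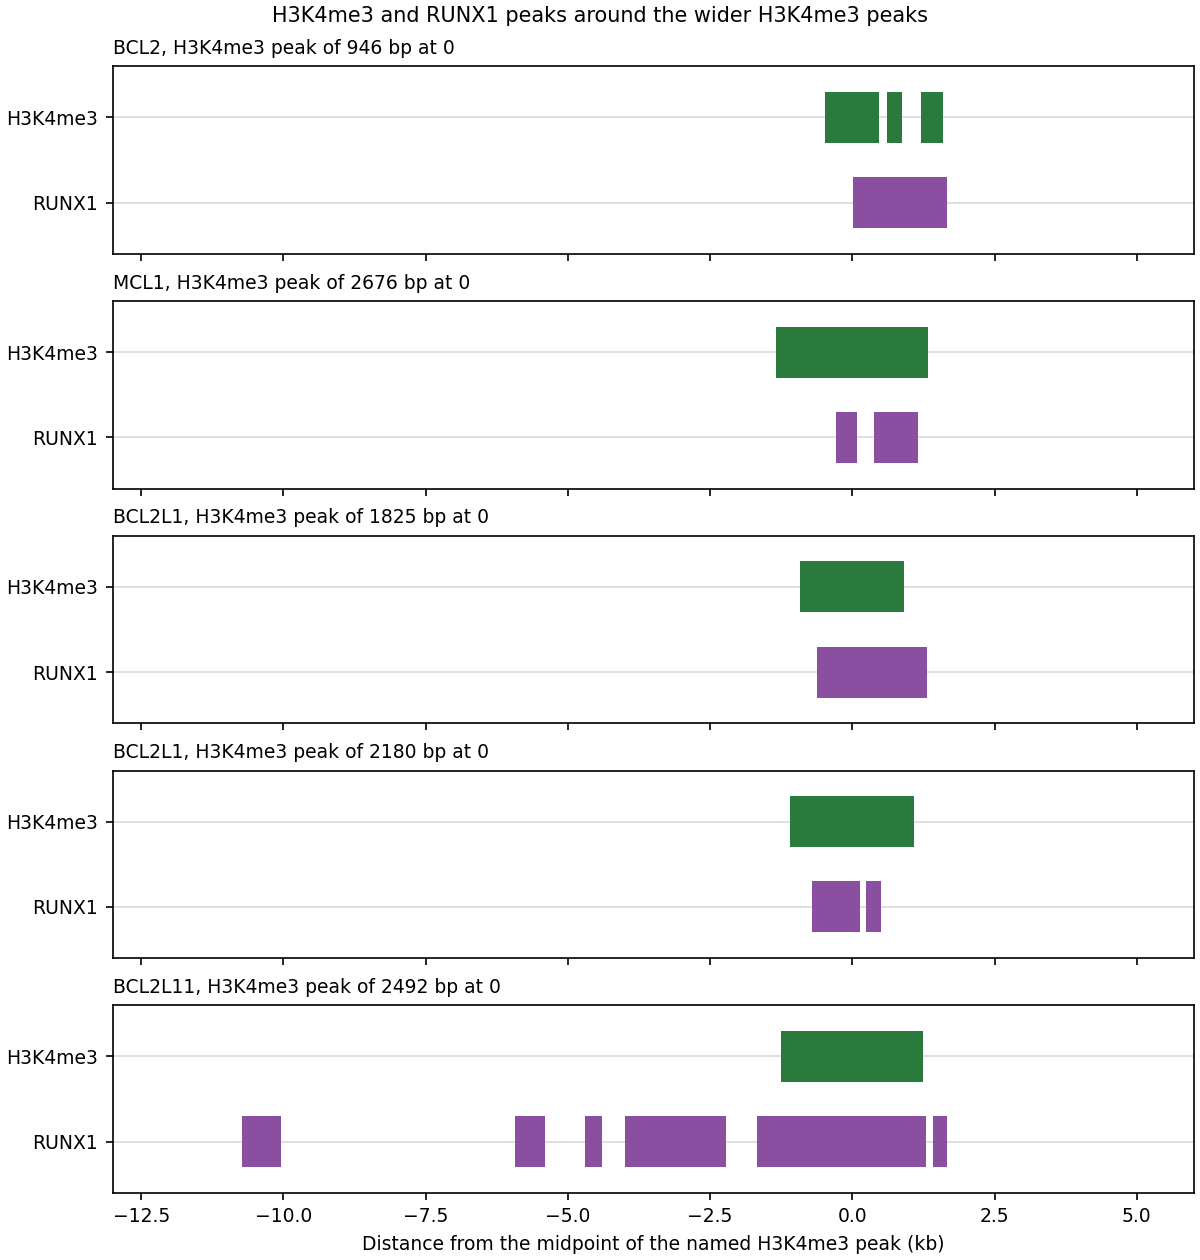
H3K4me3 and RUNX1 peaks around the 5 H3K4me3 peaks that were at least as wide as the list median, with distance in kb from the midpoint of each on the x axis. RUNX1 covers the whole mark at BCL2L11, lies inside it at MCL1, and bridges 3 H3K4me3 peaks at BCL2. The group of 6 RUNX1 peaks at BCL2L11 extends to the left of the mark.

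RUNX1 peaks at BCL2L11 were also grouped beside the mark. BCL2L11 is on the plus strand with ACOXL as the preceding protein-coding gene, and on the ACOXL side stood RUNX1 peaks of 1782 bp from 111875505 to 111877286, 298 bp from 111874802 to 111875099, 522 bp from 111873576 to 111874097 and 670 bp from 111868782 to 111869451. Their distances to the mark were 0.969, 3.16, 4.16 and 8.80 kb. On the other side a peak of 244 bp from 111880922 to 111881165 lay 174 bp from it. With the peak on the mark they make 6 RUNX1 peaks in 12.4 kb. Of the 21979 RUNX1 regions joined in the same way, with or without H3K4me3, 2.43% held 6 or more. The largest such regions of the other windows held 3 RUNX1 peaks at BCL2L1 and 2 each at BCL2 and MCL1, sizes that 14.2% and 33.5% of regions reached. In each case the largest of a window's regions was set beside single regions. These shares are therefore not shares of windows, and make the windows look rarer than a like comparison would.

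The remaining RUNX1 peaks of the BCL2L11 window were farther off. A peak of 556 bp, from 111857546 to 111858101, lay 20.2 kb from the mark on the ACOXL side. In the other direction a peak of 1326 bp from 111914475 to 111915800 lay 33.7 kb away, and a peak of 570 bp from 111925914 to 111926483 lay 45.2 kb away. Of all RUNX1 peaks outside H3K4me3 in the 4 windows, 4 of 15 were within 5 kb of an H3K4me3 peak, all of them at BCL2L11, against 12.2% of such peaks in the whole list. The median distance was 13.6 kb in the windows and 51.0 kb in the whole list. Windows drawn around genes with the mark hold no very distant peaks, so the distances are bounded by the choice of window.

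Members had median widths close to those of their lists, with narrow and wide peaks among them. The 9 H3K4me3 peaks had a median width of 946 bp with a range of 238 to 2676 bp, against a median of 938 bp in the list. The 24 RUNX1 peaks had a median of 620 bp with a range of 227 to 2967 bp, against 645 bp in the list. RUNX1 peaks at H3K4me3 had a median width of 837 bp (n = 9) and those outside it 556 bp (n = 15), against 1012 and 527 bp in the list. The 3 widest RUNX1 peaks of the windows were the one on the BCL2L11 mark, the one with SMA4 at BCL2 and the one at the 1825 bp mark of BCL2L1, so wide RUNX1 peaks stood both at and away from H3K4me3. No member had the minimum width of its list.

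**Figure D3:**
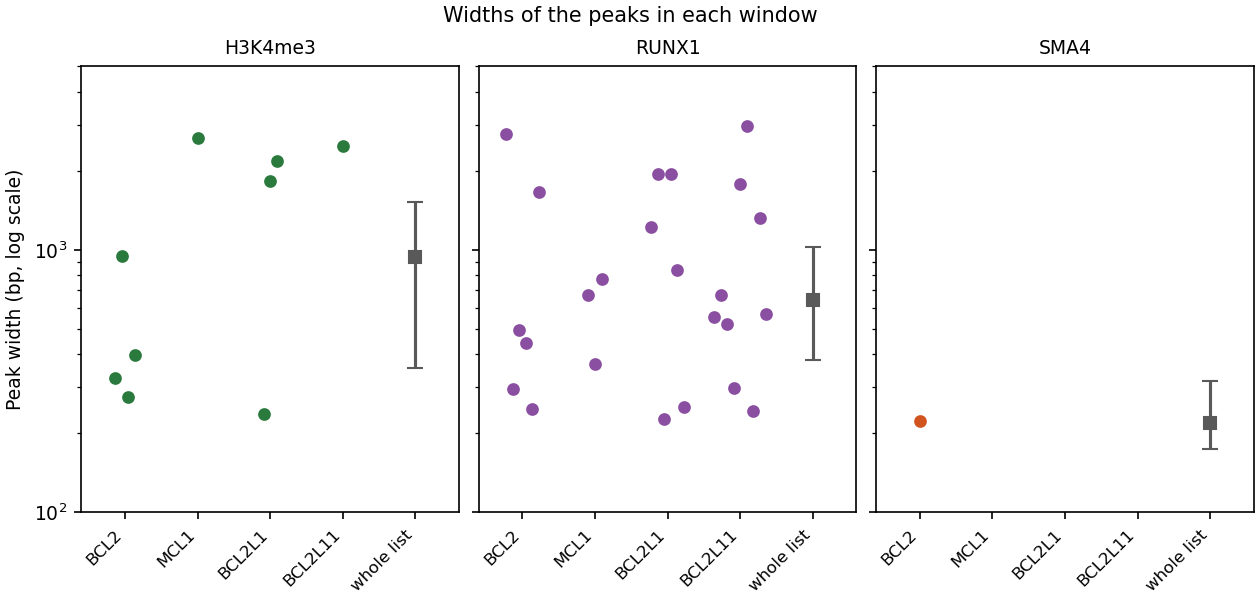
Width of every peak in bp on a log scale, by window and list. Squares are the medians of the whole lists and their bars run from the lower to the upper quartile. The MCL1 and BCL2L11 H3K4me3 peaks (2676 and 2492 bp) lie above the upper quartile of 1524 bp, as do the 2 wide ones of BCL2L1, and the 4 of BCL2 lie below it.

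RUNX1 peaks were denser in the windows than in the list as a whole, and least so at BCL2. The density was 9.0 RUNX1 peaks per 100 kb at BCL2L11, 7.5 at MCL1, 6.67 at BCL2L1 and 2.31 at BCL2, against 1.21 over chromosomes 1 to 22 and X. RUNX1 peaks covered 8.94% of the BCL2L11 window, 7.14% of the BCL2L1 window, 4.54% of the MCL1 window and 2.27% of the BCL2 window, against 0.962% of the genome. Much of the genome holds no peak at all, so each window was set beside end-to-end tiles of its own width. At least 9 RUNX1 peaks, as at BCL2L11, were found in 1.65% of 100 kb tiles. At least 6, as at BCL2L1, were found in 4.26% of 90 kb tiles. At least 3, as at MCL1, were found in 5.55% of 40 kb tiles, and at least 6, as at BCL2, in 20.9% of 260 kb tiles.

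These places in the list depend on the tiles they are set beside. Among tiles that held an H3K4me3 peak, a choice made after the values were seen, the shares were 5.54% for BCL2L11, 14.5% for BCL2L1, 26.4% for MCL1 and 44.6% for BCL2. The BCL2 window, with 6 RUNX1 peaks against a median of 5 in such tiles, was thus near the middle of the marked tiles of its width. BCL2L11, with 9 against a median of 3, stood highest of the 4 in both settings. MCL1 had 3 against a median of 2, and BCL2L1 had 6 against a median of 2, of which 2 lay at the mark nearest to TPX2. The windows were drawn around genes and the tiles were not, so the shares describe position within the list and test nothing.

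**Figure D4:**
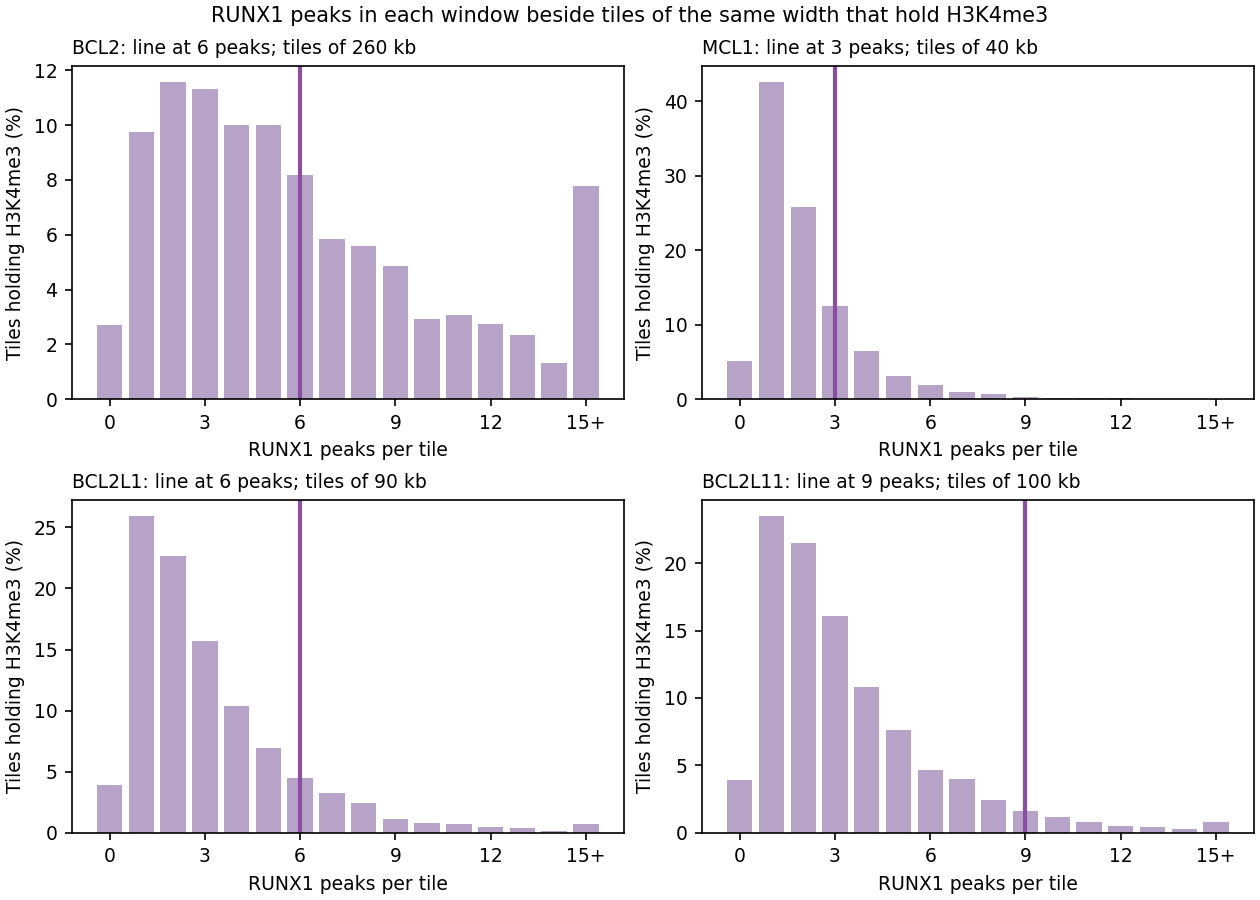
Share of tiles that hold H3K4me3 (y axis, percent) by their number of RUNX1 peaks (x axis, the last bar pooling 15 or more), for tiles as wide as each window. The line marks the window's own count. The line for BCL2L11 at 9 peaks lies in the tail, where 5.54% of tiles hold as many, and the line for BCL2 at 6 peaks lies near the median of 5.

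The peaks just outside the windows show where the rule ended. At BCL2 the next H3K4me3 peak, from 61033486 to 61035306, began 13.5 kb beyond the edge on the KDSR side, with a RUNX1 peak 14.03 kb beyond the edge, and on the other side a RUNX1 peak lay 17.3 kb outside. At MCL1 the nearest RUNX1 peaks outside were 8.32 kb from the edge on the ADAMTSL4 side and 31.2 kb on the ENSA side. The BCL2L1 window was followed by 61.7 kb without a RUNX1 peak and preceded by 38.9 kb without one. The BCL2L11 window stood most apart, with the next RUNX1 peaks 232.8 and 239.9 kb from its edges. Other family genes, among them BAX, BAK1, BID, BAD, BBC3, PMAIP1, BMF and BCL2A1, were not placed, since an hg19 annotation was not used here.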

How the data were processed

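Peak lists of the H3K4me3, RUNX1 and SMA4 libraries were used as deposited by the authors: chromosome, start and end per peak in hg19, with no other value. Per the file headers, MACS2 called the H3K4me3 and RUNX1 peaks, and cutruntools the SMA4 peaks at q < 0.01. The submitters' processing notes also name SEACR. The sources used here give no aligner or other threshold, and read depth is unknown, so peak numbers were never compared between lists. Coordinates are printed 1-based, and 51392 peaks on chromosomes 1 to 22 and X served as background. A peak was a member when it overlapped a window by at least 1 bp, the minimum also used between lists. Coverage, gaps and joined regions (under 10 kb) were computed in Python 3.11.15 with scipy 1.17.1 (Wilson intervals). Overlap code was tested on simulated intervals. Positions were printed for every H3K4me3, RUNX1 and SMA4 peak of the windows. Members, windows and lists were chosen with earlier results of these data known. Promoter sequences and gene order come from RefSeq for GRCh38.p14.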

Additional observations from a re-analysis of the deposited data

How the results depend on the processing

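Of 112 values recomputed under alternatives, 98 stayed within 1.5 times the reported count or within its 95% interval, 14 moved and 0 reversed. The 98 are not a measure of robustness, because some of these values could hardly move. No member had the minimum width of its list, so leaving out such peaks changed nothing. The shares of the single SMA4 peak were judged against intervals of 20.7 to 100% and 0 to 79.3%. Overlap by 50% of the shorter peak, at midpoints, within 1 kb or without peaks of minimum width moved none of the overlap shares outside their intervals, which are wide. H3K4me3 peaks overlapping RUNX1 came to 88.9% by midpoint or by 50% of the shorter peak, since the 946 bp peak of BCL2 then no longer counted. The share of tiles with at least as many RUNX1 peaks moved most. Without tiles that held no peak it was 33.9% for BCL2, 20.8% for MCL1, 10.2% for BCL2L1 and 3.80% for BCL2L11. By bases covered in place of peak number it was 13.7% for BCL2, 6.78% for MCL1, 1.96% for BCL2L1 and 1.02% for BCL2L11. Among tiles with H3K4me3 it was 44.6%, 26.4%, 14.5% and 5.54% in the same order. With RUNX1 peaks under 20 kb apart joined, the largest region at MCL1 held 4 peaks, 1 of them outside the window. With only peaks under 5 kb apart joined, the 17.0 kb region at BCL2L1 split into single peaks. The largest region of that window then held 2 peaks and lay at the mark nearest to TPX2, a change counted as unmoved. Merging peaks under 500 bp apart left 2 H3K4me3 peaks at BCL2. No paired analysis was possible because each target antibody had 1 library. The lists hold no scores, so a stricter threshold could not be tried.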
